A study of Mus musculus with 23 samples.

Results

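The antioxidant enzyme genes described here are 10 genes: 3 superoxide dismutases (Sod1, Sod2, Sod3), catalase (Cat), 3 glutathione peroxidases (Gpx1, Gpx3, Gpx4) and 3 peroxiredoxins (Prdx4, Prdx5, Prdx6). They were chosen by name from the 27466 genes of the count table, and each of the 10 was found and passed the filter on low counts, so that all were tested among 19255 genes. Poly(A) RNA of wild-type CD-1 mouse testes was sequenced in vivo at 4 ages, from 6.5 and 10.5 to 22.5 and then 36.5 days postpartum (dpp), and in explants of 6.5 dpp testes after 4, 16 and 30 days in vitro (D4, D16, D30), which match the 3 later ages in turn. Tissue was fresh, or had been thawed after controlled slow freezing (CSF) at 6.5 dpp and before culture to D30. Every explant, fresh or frozen, was grown in α-MEM with serum replacement, gentamicin and all-trans retinol, and its necrotic centre was cut away before RNA extraction, so the cultured samples hold only the outer tissue. The 21 libraries compared comprise 4 of the 6.5 dpp testis (1 fresh, 3 CSF) and 4 of D30 explants (3 fresh, 1 CSF), 3 each of 10.5 dpp, 22.5 dpp and D4, and 2 each of 36.5 dpp and D16.

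Superoxide, made by the respiratory chain, by NADPH oxidases and by xanthine oxidase, is turned into hydrogen peroxide by superoxide dismutases. Catalase, glutathione peroxidases and peroxiredoxins then reduce the peroxide, the glutathione peroxidases with glutathione and most peroxiredoxins with thioredoxin. Gpx1, Gpx3 and Gpx4 are selenoenzymes, so their making also depends on the selenocysteine machinery. In the testis Gpx4 has a second role: a mitochondrial form of it becomes a structural part of the sperm midpiece. The question behind the comparisons is how the transcriptome of cultured explants departs from that of the testis of the same age over the first spermatogenic wave, and whether freezing alters it.

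Totals ran from 28351546 to 69029328 counts per library over 21 libraries, and a member had between 132 and 24413 counts in a library, the lowest being those of Gpx3 at 22.5 dpp (132 to 226), where counting error is close in size to the spread between libraries. Levels are in CPM, counts per 1000000 counts of the library. Of the 23 columns, 6.5 dpp fresh replicate 3 is equal to replicate 2 for every gene and was counted with it as 1 library. The library labelled 6.5 dpp fresh replicate 1 was left out: across genes, its counts had a Spearman correlation of 0.985 with those of D16 replicate 1, against 0.928 with those of the remaining fresh library of its stage. Of the 10 members, Sod1 (101 CPM), Cat (46.7), Gpx1 (51.2), Prdx4 (64.4) and Prdx5 (106) were lower in it than in any other 6.5 dpp library, Sod2 (110), Gpx3 (85.7) and Prdx6 (197) were higher, and Sod3 (69.6) and Gpx4 (42.7) were within their range. Calls that were lost with it kept are given as such. Within a stage, libraries also differed in the balance of short and long transcripts. An index of this balance was taken from log2 levels, each relative to the gene's stage mean. It is the median over 465 genes with under 1000 exon bases minus the median over 6553 genes with at least 3000, the members being left out of both. The index was 1.20 in 6.5 dpp CSF replicate 3, 0.54 and -0.54 in 36.5 dpp replicates 1 and 2, and 0.53 and -0.53 in D16 replicates 1 and 2.

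For reference, promoter sequences of 4 members follow, from RefSeq on GRCm38.p6, 5′ to 3′ along each gene, from 250 bases before to 50 after the annotated start. Gpx3 is shown as the member whose level differed most between culture and testis, and Sod1, Gpx1 and Prdx4 because they hold a match to a searched motif, in capitals. The motifs, searched on both strands, were TGACNNNGC (the core bound by NRF2, a regulator of antioxidant genes), ACGTG (the core bound by hypoxia-inducible factors) and TGACGTCA (the cAMP response element).
Gpx3 (chr11:54902604-54902903, plus strand): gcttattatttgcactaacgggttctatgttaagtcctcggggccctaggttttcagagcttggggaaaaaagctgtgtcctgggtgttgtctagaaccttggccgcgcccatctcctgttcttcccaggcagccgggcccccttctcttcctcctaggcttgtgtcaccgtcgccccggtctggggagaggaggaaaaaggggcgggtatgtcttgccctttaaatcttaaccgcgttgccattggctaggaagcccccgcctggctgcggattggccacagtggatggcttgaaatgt
Sod1 (chr16:90220512-90220811, plus strand): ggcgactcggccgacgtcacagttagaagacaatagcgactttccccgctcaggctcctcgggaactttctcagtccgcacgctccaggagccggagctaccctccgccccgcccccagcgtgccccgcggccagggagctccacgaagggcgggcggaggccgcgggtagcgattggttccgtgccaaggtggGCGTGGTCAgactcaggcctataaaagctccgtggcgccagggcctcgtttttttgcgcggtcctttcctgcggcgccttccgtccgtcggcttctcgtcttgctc
Gpx1 (chr9:108338830-108339129, plus strand): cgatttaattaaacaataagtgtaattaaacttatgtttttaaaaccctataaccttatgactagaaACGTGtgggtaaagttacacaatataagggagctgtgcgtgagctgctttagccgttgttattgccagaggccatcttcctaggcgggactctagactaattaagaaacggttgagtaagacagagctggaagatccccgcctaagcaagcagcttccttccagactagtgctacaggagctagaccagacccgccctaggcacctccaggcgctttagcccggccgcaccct
Prdx4 (chrX:155338411-155338710, minus strand): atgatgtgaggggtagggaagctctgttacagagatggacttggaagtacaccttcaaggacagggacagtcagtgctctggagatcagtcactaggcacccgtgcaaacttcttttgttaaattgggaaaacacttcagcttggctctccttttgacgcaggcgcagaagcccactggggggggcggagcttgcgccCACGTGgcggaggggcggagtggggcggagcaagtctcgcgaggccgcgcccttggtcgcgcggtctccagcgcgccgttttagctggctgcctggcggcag
Sod1 held TGACNNNGC on the minus strand, Gpx1 held ACGTG, and Prdx4 held ACGTG on both strands of 1 overlapping site. The Prdx4 window lies inside the gene, whose span on the minus strand begins upstream at 155342272. It therefore belongs to an internal annotated start, and the sequence before the upstream end was not searched. No match stood in this window in Gpx3, nor in the promoter entries of Sod2, Cat, Gpx4 (4 starts) and Prdx5. Sod3 and Prdx6 had no promoter entry and were not searched. Of 32851 promoters of the same length, 12.4% held TGACNNNGC, 19.6% ACGTG and 1.79% TGACGTCA. A match describes the letters only.

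Between culture and the age-matched testis, Gpx3, the secreted glutathione peroxidase, was higher in vitro at each of the 3 ages, and it was the 1 member called at D4. At D4 against 10.5 dpp, 1 of 10 members differed (Gpx3), where 8.1% of all genes tested did and 4.92% were higher. At D16 against 22.5 dpp, 2 of 10 differed (Gpx3 and Cat, both higher in vitro), where 25.8% of all genes did and 14% were higher. At D30 against 36.5 dpp, 7 of 10 differed, Gpx3, Sod3 and Cat being higher and Gpx4, Prdx4, Sod1 and Sod2 lower in vitro, where 67.4% of all genes did, 32.4% being higher and 35% lower. These shares of members are near those of all genes, so the counts set the members apart from other genes at none of the 3 ages. The median log2 fold change of the 10 members was 0.10, 0.37 and -0.29 at the 3 ages, beside medians over all genes of -0.01, -0.08 and -0.03. A call here means a Benjamini-Hochberg adjusted p under 0.05 in edgeR's quasi-likelihood F test with TMM (trimmed mean of M values) scaling.

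**Figure D1:**
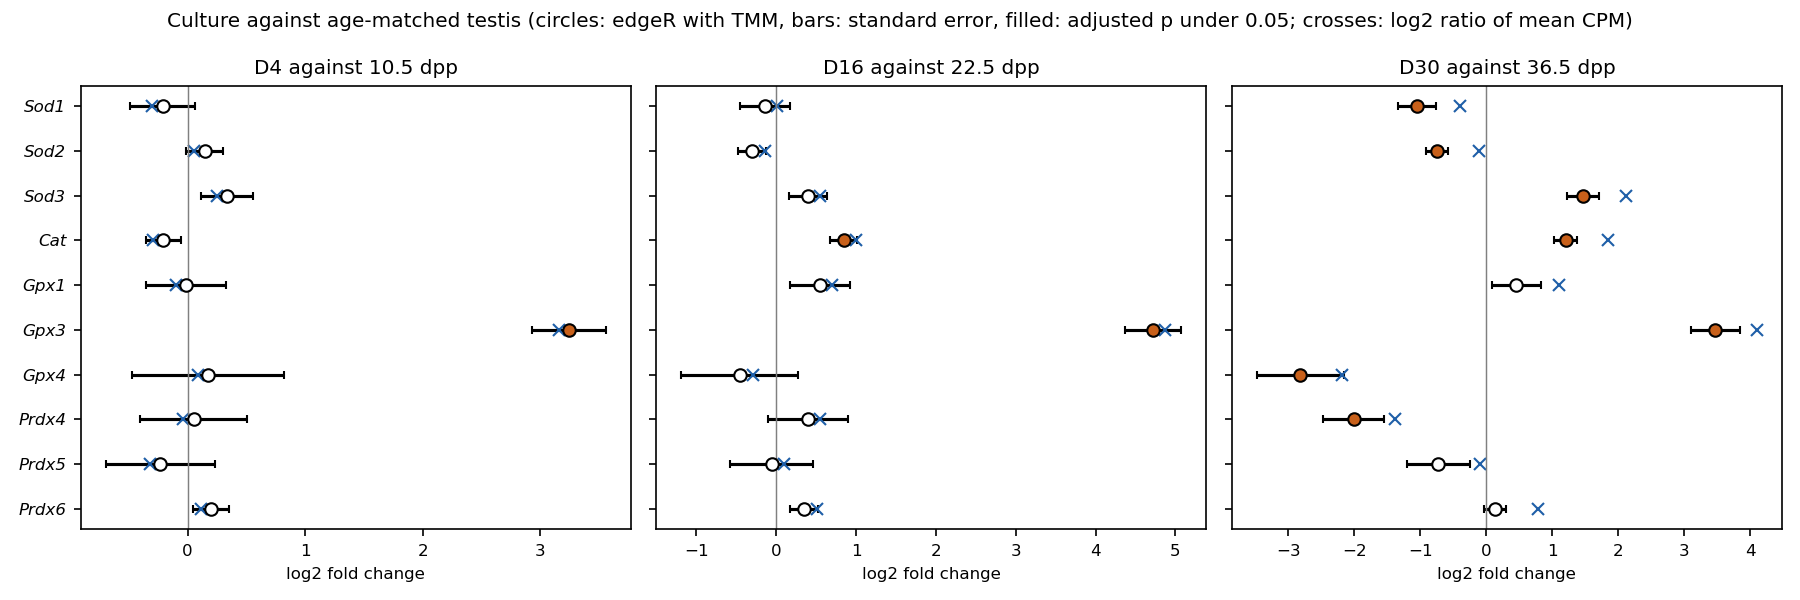
Log2 fold changes of the 10 genes between explants and the testis of the same age, 1 panel per age; circles with bars are the edgeR estimates with their standard errors, filled where the adjusted p is under 0.05, and crosses are log2 ratios of mean CPM without scaling factors. Gpx3 lies furthest to the right at each age, from 3.24 at D4 to 4.72 at D16, and at D30 the crosses lie to the right of the circles for every gene.

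At D30 against 36.5 dpp the scaling matters. The TMM factors were 0.66 and 0.64 in the 36.5 dpp libraries and 0.98 to 1.07 in the D30 libraries. With library size alone the median of all genes moved from -0.03 to 0.60, and the share of called genes that were higher in vitro moved from 48.0% to 65.8%. Gpx3, Sod3, Cat, Gpx4 and Prdx4 were called in the same direction under either scaling, whereas Sod1 (-0.40, adjusted p = 0.206) and Sod2 (-0.11, adjusted p = 0.523) were not called by library size alone.

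Gpx3 (chr11:54902854-54910387, plus strand) encodes the glutathione peroxidase that is secreted into extracellular fluid. It stood at 14.1, 17.3, 18.9 and 29.1 CPM in the 6.5 dpp libraries and at 15.0, 14.2 and 15.0 at 10.5 dpp. It was at 4.01, 4.96 and 4.17 CPM at 22.5 dpp and at 10.96 and 4.84 at 36.5 dpp. In culture it was at 110, 137 and 148 CPM at D4, 163 and 92.5 at D16, and 120, 140, 130 and 151 (CSF) at D30. The lowest culture library thus lay above the highest of the in vivo libraries, with no overlap at any age. The ratio of mean CPM was 8.92 at D4 against 10.5 dpp, 29.2 at D16 against 22.5 dpp and 17.1 at D30 against 36.5 dpp. The log2 fold changes were 3.24 ± 0.32 (SE; adjusted p = 2.77e-06), 4.72 ± 0.35 (adjusted p = 2.49e-07) and 3.47 ± 0.37 (adjusted p = 8.05e-07), and none of these calls was lost in any alternative fit.

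Against the 6.5 dpp testis from which the explants came, Gpx3 was already 6.62-fold higher at D4 (log2 fold change 2.73 ± 0.28, adjusted p = 1.97e-06). With 6.5 dpp fresh replicate 1 kept the log2 fold change was 1.90 (adjusted p = 0.0237), and with fresh libraries alone it was 3.28 (adjusted p = 0.000717). After D4 it stayed level, with log2 fold changes of 0.02 ± 0.32 at D16 against D4 and 0.10 ± 0.31 at D30 against D16, neither called. In vivo it fell by 1.46 ± 0.30 on the log2 scale from 10.5 to 22.5 dpp (adjusted p = 0.000453). The rise from 22.5 to 36.5 dpp, 1.35 ± 0.33 (adjusted p = 0.00261), rested on 36.5 dpp replicate 1, without which it was 0.67 (adjusted p = 0.155), and with 6.5 dpp fresh replicate 1 kept its adjusted p was 0.0809. The library labelled 6.5 dpp fresh replicate 1 was at 85.7 CPM, 2.94 times the highest of the other 6.5 dpp libraries.

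The culture effect on Gpx3 was larger at D16 than at D4 by 1.48 ± 0.44 on the log2 scale (adjusted p = 0.0409), but this call was lost in 11 of 21 alternative fits, among them the fit with 6.5 dpp fresh replicate 1 kept (adjusted p = 0.394) and the fit without D16 replicate 1 (0.98, adjusted p = 0.163). It was also lost without any 1 library of 10.5 dpp or D4, or without 22.5 dpp replicate 1 or 3, with values of 1.36 to 1.55 and adjusted p up to 0.0993. The culture effects at D30 and D4 differed by 0.23 ± 0.43, and those at D30 and D16 by -1.25 ± 0.45 (adjusted p = 0.0551), which was called without 36.5 dpp replicate 2 (-1.73, adjusted p = 0.0146) and without D16 replicate 2 (-1.62, adjusted p = 0.019). Marker levels of other cell types between 10.5 dpp and D4 were as follows. The summed level of 5 peritubular and stromal markers ran from 2456 to 2750 CPM at 10.5 dpp and from 2900 to 3787 at D4, that of 4 endothelial markers from 179 to 200 and from 219 to 240, and that of 4 adipocyte markers from 24.1 to 29.2 and from 8.75 to 12.6. The endothelial markers ran from 37.6 to 59.8 CPM at 22.5 dpp and from 195 to 259 at D16. They ran from 17.1 to 20.01 at 36.5 dpp, from 131 to 174 at D30 and from 110 to 213 at 6.5 dpp. The peritubular and stromal markers ran from 663 to 1035 CPM at 22.5 dpp and from 1398 to 1550 at D16. They ran from 154 to 250 at 36.5 dpp, from 1171 to 1821 at D30 and from 2595 to 3098 at 6.5 dpp. The adipocyte markers ran from 12.5 to 15.9 CPM at 22.5 dpp and from 8.63 to 8.75 at D16. They ran from 20.6 to 30.2 at 36.5 dpp, from 7.41 to 12.3 at D30 and from 23.5 to 29.8 at 6.5 dpp. The 5 epididymis markers summed to at most 0.206 CPM in any library analysed. The part of these cells in the level of Gpx3 was not tested. In whole tissue, fewer cells of a type and less RNA per cell cannot be told apart, which holds for every result given here.

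**Figure D2:**
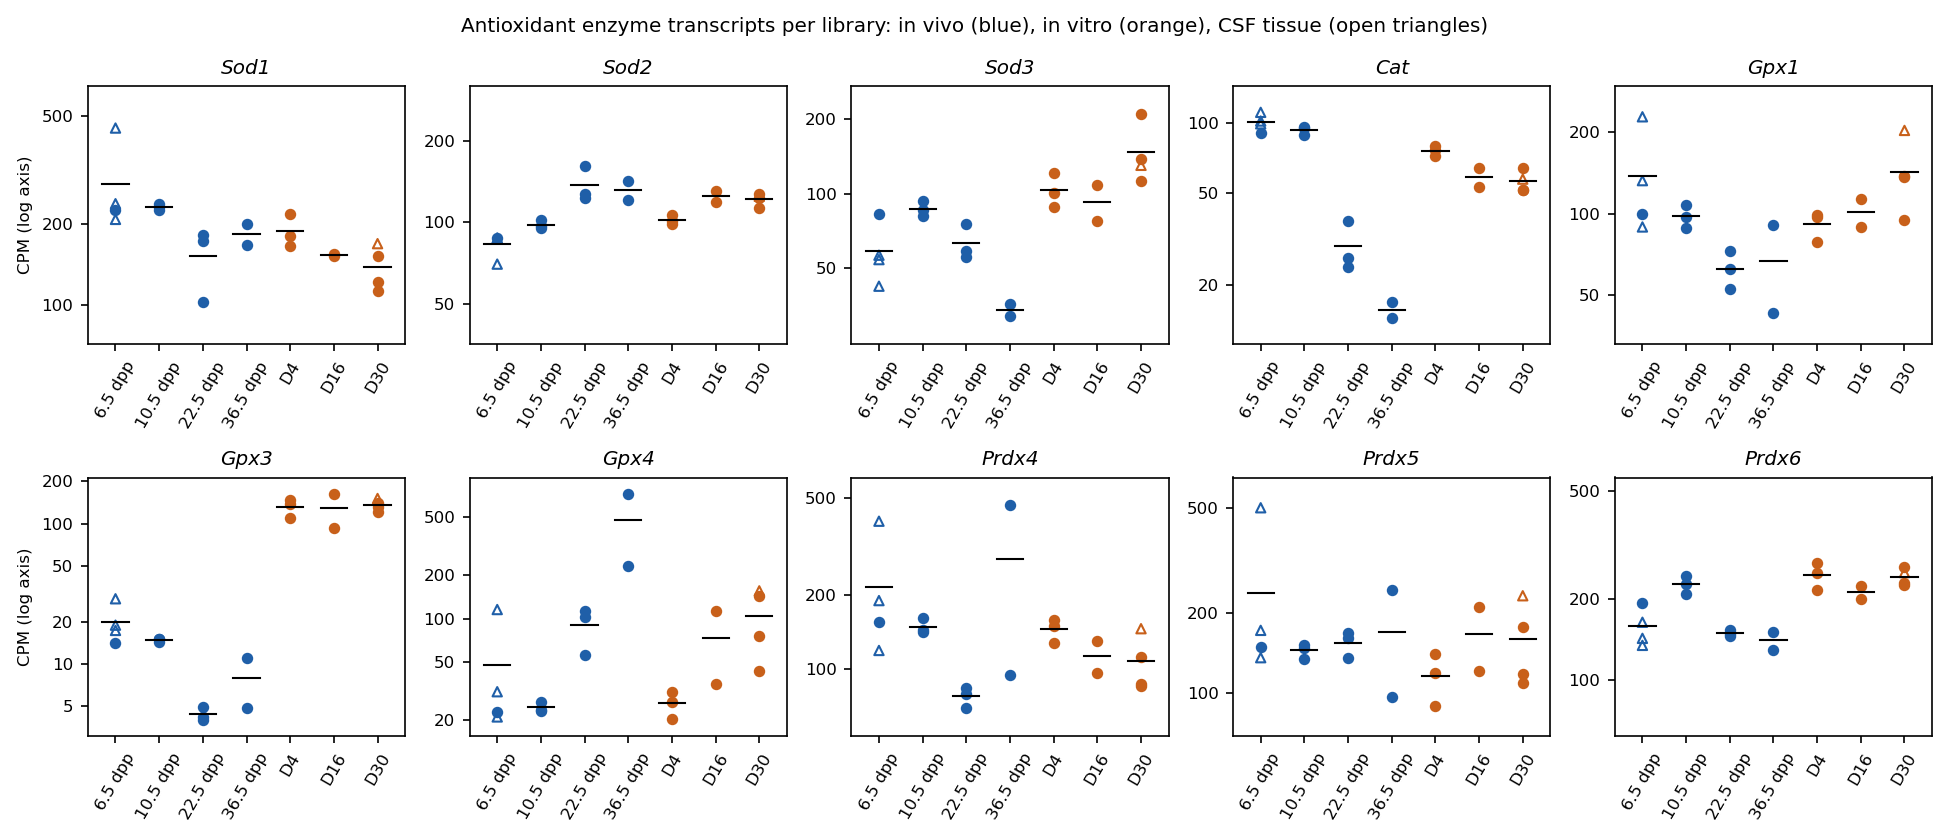
CPM of each gene in each of the 21 libraries on a log axis, by stage; blue points are in vivo, orange points in vitro, open triangles CSF tissue and black bars stage means. The 9 culture libraries of Gpx3 lie between 92.5 and 163 CPM and the 12 in vivo libraries between 4.01 and 29.1, while Gpx4 and Prdx4 are highest on average at 36.5 dpp, where the 2 libraries lie far apart.

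Gpx4 (chr10:80047166-80056439, plus strand) encodes the enzyme that reduces lipid hydroperoxides in membranes. It was at 22.9, 23.7 and 26.8 CPM at 10.5 dpp, at 103, 56.4 and 112 at 22.5 dpp, and at 725 and 232 at 36.5 dpp. The 3 ages did not overlap. The gene rose by a log2 fold change of 2.21 ± 0.68 from 10.5 to 22.5 dpp (adjusted p = 0.00882) and by a further 2.88 ± 0.73 to 36.5 dpp (adjusted p = 0.0035), which without 36.5 dpp replicate 1 was 1.86 (adjusted p = 0.086). In culture it was at 20.3, 26.8 and 31.1 CPM at D4, at 113 and 35.7 at D16, and at 75.9, 144, 43.9 and 156 (CSF) at D30. The libraries of D4 and D16 did not overlap, yet neither the D16 step (1.58 ± 0.71, adjusted p = 0.125) nor the D30 step (0.52 ± 0.70, adjusted p = 0.92) was called.

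At D30 every library of Gpx4 lay below both 36.5 dpp libraries, and the mean CPM was 4.57-fold lower (log2 fold change -2.81 ± 0.66, adjusted p = 0.00118). Without 36.5 dpp replicate 1 the log2 fold change was -1.81 (adjusted p = 0.054). The culture effect on Gpx4 was lower at D30 than at D4 by 2.99 ± 0.93 (adjusted p = 0.0145; -1.997 and adjusted p = 0.128 without 36.5 dpp replicate 1). The 6 spermatid markers moved the same way: they summed to 23.8 to 101 CPM at 22.5 dpp, 16660 to 21474 at 36.5 dpp and 366 to 1676 at D30. Their part in the level of Gpx4 was not tested. By sequence, 51.4% of the 50-base windows of Gpx4 transcripts also occur in the pseudogene Gpx4-ps2, which was not matched in the table, so reads could have been split between them or left uncounted.

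Gpx1 (chr9:108339080-108340342, plus strand), the cytosolic glutathione peroxidase, ranged from 88.7 to 108 CPM at 10.5 dpp and from 78.3 to 99.1 at D4. It ranged from 52.5 to 72.5 CPM at 22.5 dpp against 114 and 89.0 at D16, and was at 90.8 and 42.7 at 36.5 dpp against 94.3 to 203 at D30. The D16 and D30 libraries lay above those of the matched testis without overlap, but neither difference was called (0.55 ± 0.38, adjusted p = 0.283, and 0.46 ± 0.37, adjusted p = 0.279). By library size alone the D30 difference was called (1.10, adjusted p = 0.013).

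Cat (chr2:103453904-103485153, minus strand) encodes the peroxisomal enzyme that splits hydrogen peroxide without a cosubstrate. Its level fell with age in vivo, from 96.2, 88.5 and 94.8 CPM at 10.5 dpp to 26.1, 37.9 and 23.9 at 22.5 dpp and 16.8 and 14.4 at 36.5 dpp. The first of these steps was called (log2 fold change -1.39 ± 0.16, adjusted p = 7.63e-07), and the second, without overlap, was not (-0.39 ± 0.17, adjusted p = 0.0708), but it was called without 22.5 dpp replicate 3 (-0.49, adjusted p = 0.0342), by library size alone (-0.91, adjusted p = 0.000721) and with the transcript length index described above in the fit (-0.39, adjusted p = 0.0338). In culture Cat was at 71.8, 79.9 and 76.4 CPM at D4, at 52.8 and 63.8 at D16, and at 51.2, 51.6, 64.1 and 57.2 (CSF) at D30. No step between culture days was called.

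Cat was therefore higher in vitro from D16, 1.99-fold against 22.5 dpp (log2 fold change 0.85 ± 0.17, adjusted p = 0.0021) and 3.59-fold against 36.5 dpp by mean CPM (1.20 ± 0.17, adjusted p = 1.33e-05). At D4 it differed from 10.5 dpp by -0.21 ± 0.15 and was not called. The D16 call was lost without D16 replicate 2 (0.74, adjusted p = 0.0514) and in a fit of only the stages compared (0.90, adjusted p = 0.0615), and the D30 call was kept in all 16 alternative fits. The culture effect on Cat was larger than at D4 both at D16, by 1.05 ± 0.23 (adjusted p = 0.00931, or 0.117 with 6.5 dpp fresh replicate 1 kept and 0.0697 without D16 replicate 2), and at D30, by 1.41 ± 0.23 (adjusted p = 0.000129). The summed peritubular and stromal markers stood at 663 to 1035 CPM at 22.5 dpp and 1398 to 1550 at D16, and at 154 to 250 at 36.5 dpp and 1171 to 1821 at D30. Their part in the level of Cat was not tested.

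Sod3 (chr5:52363804-52369738, plus strand) is the secreted, extracellular superoxide dismutase. It was at 81.1, 93.3 and 86.0 CPM at 10.5 dpp and at 87.9, 101 and 121 at D4. It was at 58.9, 75.6 and 55.4 CPM at 22.5 dpp against 77.3 and 108 at D16, and at 36.1 and 32.1 at 36.5 dpp against 138, 113, 208 and 130 (CSF) at D30. The difference widened to 4.32-fold by mean CPM at D30, a log2 ratio of 2.11. With TMM scaling the log2 fold change was smaller, 1.46 ± 0.25, and was called (adjusted p = 6.77e-05). This call was kept in all 16 alternative fits. The differences at D4 (0.34 ± 0.22) and D16 (0.40 ± 0.24) were not called. At D30 against 36.5 dpp the summed peritubular and stromal markers (1171 to 1821 against 154 to 250 CPM) and endothelial markers (131 to 174 against 17.1 to 20.01) were higher too, and their part in the level of Sod3 was not tested.

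The culture effect on Sod3 was larger at D30 than at D4 by 1.13 ± 0.32 (adjusted p = 0.00853) and than at D16 by 1.07 ± 0.34 (adjusted p = 0.0362). The latter call was lost in 10 of 21 alternative fits, among them those without 22.5 dpp replicate 1 or 2, either 36.5 dpp library or D30 fresh replicate 3 (0.88 to 1.13), without D16 replicate 1 (0.87, adjusted p = 0.205) and with 6.5 dpp fresh replicate 1 kept (adjusted p = 0.0637). Against 6.5 dpp, Sod3 was 1.75-fold higher at D4 (0.84 ± 0.20, adjusted p = 0.00649), but with fresh libraries alone, which leaves 1 library at 6.5 dpp, the log2 fold change was 0.38 (adjusted p = 0.597).

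Sod1 (chr16:90220762-90226333, plus strand) encodes the cytosolic copper and zinc enzyme, and Sod2 (chr17:13007839-13018119, plus strand) the manganese enzyme of the mitochondrial matrix. Sod1 was at 168 and 200 CPM at 36.5 dpp and at 122, 113, 153 and 169 (CSF) at D30. These values overlap, and the call (log2 fold change -1.05 ± 0.29, adjusted p = 0.00372) rests on the TMM factors, as given above. Sod2 moved over a narrow range, with stage means from 82.9 to 137 CPM. It rose from 96.9, 102 and 94.9 CPM at 10.5 dpp to 123, 127 and 161 at 22.5 dpp (0.79 ± 0.16, adjusted p = 0.000339), which was kept in all 16 alternative fits. At 36.5 dpp against D30 it was at 121 and 143 CPM against 113 to 127, with overlap, and its call (-0.75 ± 0.16, adjusted p = 0.000611) also rests on the factors. From 22.5 to 36.5 dpp, Sod1 (0.79 ± 0.31, adjusted p = 0.0406) and Sod2 (0.45 ± 0.17, adjusted p = 0.0398) were called with overlapping libraries. Both calls were lost without 22.5 dpp replicate 1 (0.60 and 0.41), 22.5 dpp replicate 2 (0.82 and 0.34) or 36.5 dpp replicate 2 (0.64 and 0.31), and with 6.5 dpp fresh replicate 1 kept (adjusted p = 0.114 and 0.0939), and that for Sod1 also without 36.5 dpp replicate 1 (0.92, adjusted p = 0.0684). By library size alone the values were 0.27 and -0.06, neither called, so that the sign for Sod2 turned. Of the 50-base windows of Sod1 transcripts, 23.1% also occur in the pseudogene Gm8566, which was not matched in the table.

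Prdx4 (chrX:155323918-155342272, minus strand) is the peroxiredoxin of the endoplasmic reticulum. It was at 69.4, 83.9 and 79.0 CPM at 22.5 dpp and at 465 and 94.4 at 36.5 dpp, against 86.8, 112, 84.9 and 146 (CSF) at D30. Replicate 2 at 36.5 dpp lay within the D30 range and replicate 1 far above it, and the calls for the rise from 22.5 dpp (2.35 ± 0.51, adjusted p = 0.00105) and for D30 against 36.5 dpp (-2.01 ± 0.46, adjusted p = 0.000997) rested on 36.5 dpp replicate 1. Without it they were 0.82 (adjusted p = 0.191) and -0.48 (adjusted p = 0.388). The differences of the culture effect at D30 from that at D4 (-2.06 ± 0.65, adjusted p = 0.0158) and at D16 (-2.41 ± 0.68, adjusted p = 0.0207) rested on it too, being -0.54 (adjusted p = 0.489) and -0.87 (adjusted p = 0.357) without it. The second was also lost without D16 replicate 1 (-2.14, adjusted p = 0.105) and with 6.5 dpp fresh replicate 1 kept (adjusted p = 0.0554).

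Prdx5 (chr19:6906697-6910106, minus strand), found in mitochondria, peroxisomes and cytosol, was not called in any of the 13 comparisons in the edgeR fit of 21 libraries, with a smallest adjusted p of 0.0978 at D4 against 6.5 dpp. There it was called by DESeq2 (-1.14, adjusted p = 0.0482) and without 6.5 dpp CSF replicate 1 (-1.28, adjusted p = 0.0498). It was also called at D30 against 36.5 dpp with fresh libraries alone (-0.94, adjusted p = 0.029), at 22.5 against 10.5 dpp in a fit of those stages alone (0.42, adjusted p = 0.0351), and in several comparisons with the index in the fit. It spanned 89.9 to 499 CPM over libraries, and the highest value, in 6.5 dpp CSF replicate 3, lay far above the 136 to 173 of the other 6.5 dpp libraries. Its exons overlap those of Trmt112 on the opposite strand over 28.3% of their length. The libraries were made with a stranded kit, but the strand setting of the counting is not given in the sources used here. Trmt112 had at most 4.76 CPM. Prdx6 (chr1:161240112-161251210, minus strand), a peroxiredoxin that also acts on phospholipids, was at 193, 135, 143 and 164 CPM at 6.5 dpp and at 215, 249 and 271 at D4. This rise was called (0.65 ± 0.15, adjusted p = 0.00411), but not with fresh libraries alone (0.40, adjusted p = 0.319) nor with 6.5 dpp fresh replicate 1 kept (0.53, adjusted p = 0.054). Against the age-matched testis Prdx6 was not called with TMM scaling, and by library size alone it was higher in vitro at D16 (0.51, adjusted p = 0.0383) and D30 (0.78, adjusted p = 0.000551).

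Over the ages in vivo, 0 of 10 members were called at 10.5 against 6.5 dpp, where 1.14% of all genes were, although 2 members had an unadjusted p under 0.05 in edgeR, and DESeq2 called 0 as well. At 22.5 against 10.5 dpp, 4 of 10 were called (Gpx4 and Sod2 higher, Cat and Gpx3 lower), where 61.5% of all genes were. At 36.5 against 22.5 dpp, 5 of 10 were called, each higher (Gpx4, Prdx4, Gpx3, Sod1 and Sod2), where 50.7% of all genes were and 23.3% were higher. Without 36.5 dpp replicate 1 that last count fell to 1. Along the culture, 3 of 10 were called at D4 against 6.5 dpp (Gpx3, Sod3 and Prdx6, each higher), where 20.9% of all genes were and 10.8% were higher. In edgeR 0 of 10 were called at D16 against D4, where 23.9% of all genes were and 1 member had an unadjusted p under 0.05. In edgeR 0 of 10 were called at D30 against D16, where 1.79% of all genes were and 1 member had an unadjusted p under 0.05. DESeq2 called 0 in both.

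The culture effect itself differed between ages for some members. Between D16 and D4, 2 of 10 members were called (Cat and Gpx3, both larger at D16), where 9.61% of all genes were. Between D30 and D4, 5 of 10 were called (Cat and Sod3 higher, Gpx4, Prdx4 and Sod2 lower at D30), where 46.4% of all genes were. Between D30 and D16, 2 of 10 were called (Sod3 higher, Prdx4 lower), where 20.1% of all genes were. For Sod2 the difference between D30 and D4 was -0.89 ± 0.23 (adjusted p = 0.00402), or -0.17 (adjusted p = 0.523) by library size alone. These comparisons share libraries with the ones above and are not independent of them.

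Levels of different genes were compared per kilobase of exon. Of the 50-base windows, 51.4% for Gpx4, 24.2% for Prdx5 and 23.1% for Sod1 also occur in other genes, against at most 1.62% for any other member. Reads from such windows may be uncounted, and the order below was not corrected for this. Sod1 was first of the 10 at every stage except 36.5 dpp, with 438 ± 179 CPM per kilobase at 6.5 dpp and 217 ± 41 at D30. At 36.5 dpp Gpx4 was first with a mean of 376 CPM per kilobase, above Sod1 with 287 and Prdx4 with 283, but with 2 libraries that lie far apart for Gpx4 and Prdx4 these neighbours are not separated. By stage means Gpx3 was last of the 10 at each of the 4 ages in vivo, from 2.75 to 12.5 CPM per kilobase, and in the middle of the order in culture, with means from 80.3 to 84.9. At D30 Gpx3 (84.9 ± 8.28), Gpx4 (82.4 ± 42.2) and Prdx6 (96.6 ± 7.01) do not stand apart beyond their spread. Nor does Gpx3 (12.5 ± 4.07) from Sod2 (14.2 ± 1.46) and Sod3 (15.8 ± 4.56) at 6.5 dpp, and in 36.5 dpp replicate 1 it lay above Cat (6.88 against 6.43).

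The spread within a stage followed the short and long transcript index for some members and not for others. In each of 7 stages the library with the highest index also had the highest level of Prdx5, and so it was in 6 of 7 for Gpx4, Prdx4, Gpx1 and Sod1, in 3 for Sod3 and in 2 for Cat. The library with the lowest index had the lowest level of Gpx4 and Prdx5 in 7 of 7 stages. Sod1 and Prdx4 also have under 1000 exon bases (641 and 990), and Gpx4 has 1272, but no member is among the genes that make the index. When the index was added to the fit, an alternative chosen after the values were seen, the D30 against 36.5 dpp log2 fold changes were -2.76 for Gpx4 (adjusted p = 2.43e-10), -1.76 for Prdx4 and 3.56 for Gpx3. The counts of members called rose to 9 at D30 against 36.5 dpp and to 4 at D16 against 22.5 dpp. The share of all genes called in that fit is not given here, so these rises are not read as results about the members. What sets the index was not tested.

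**Figure D3:**
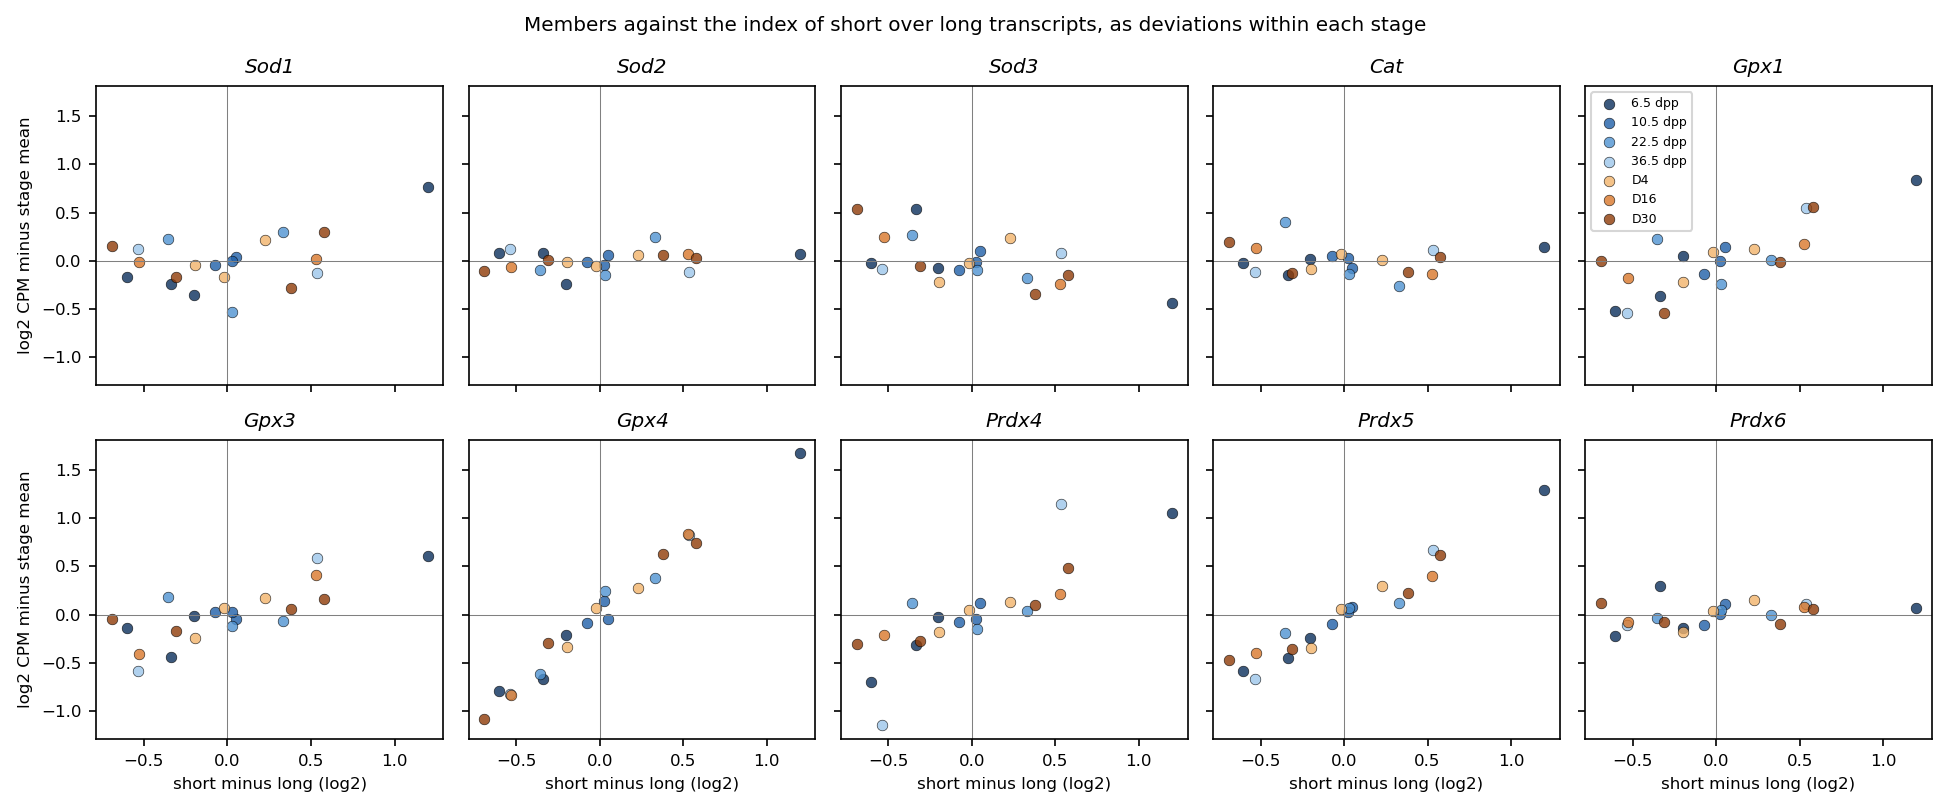
For each gene, the deviation of each library from its stage mean in log2 CPM against the same library's index of short over long transcripts, coloured by stage. Points of Gpx4 and Prdx5 run along a rising line over all stages, the rightmost being 6.5 dpp CSF replicate 3 at an index of 1.20, while those of Cat, Sod2 and Prdx6 stay closer to 0.

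Freezing was tested over 6.5 dpp and D30 together, with stage as a covariate. In edgeR 0 of 10 members were called, as were 0 of 18896 genes (0%), with 0 members and 407 genes at an unadjusted p under 0.05. DESeq2 called 0 members and 1 gene. The log2 differences of CSF from fresh tissue ran from -0.41 ± 0.25 for Sod3 to 1.14 ± 0.70 for Gpx4. At D30 the single CSF library lay above all 3 fresh ones for Sod1, Gpx1, Gpx3, Gpx4, Prdx4 and Prdx5 and within their range for the other 4. It also had the highest index of the D30 libraries, 0.58, and 6.5 dpp CSF replicate 3 the highest of all, and with the index in the fit the difference for Gpx4 was 0.05. With 1 fresh library at 6.5 dpp and 1 CSF library at D30, freezing and library cannot be told apart within a stage.

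Among 7 other peroxidases tested from the same families, 3 were higher at D16 than at 22.5 dpp, where 14% of all genes were, namely Gpx8 (log2 fold change 2.01), Prdx2 (1.38) and Prdx3 (1.10). At D30 against 36.5 dpp, 4 were higher, where 32.4% of all genes were, among them Prdx2 (1.72) and Gpx8 (1.68). Gpx6 was lower (-4.26), where 35% of all genes were. Gpx6, close kin to Gpx3, was at 35.9 and 53.8 CPM at 36.5 dpp and at most 4.64 at D30, the reverse of Gpx3.

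The 6 genes of the thioredoxin system, which keep peroxiredoxins reduced, did not move as a block. At D4 against 10.5 dpp, 3 were higher, where 4.92% of all genes were: Srxn1 (log2 fold change 1.23), which repairs overoxidized peroxiredoxins, Sesn2 (0.99), a stress-induced sestrin, and Txnrd1 (0.46), the cytosolic thioredoxin reductase. At D30 against 36.5 dpp 4 were higher, led by Sesn2 (2.18) and Txnrd2 (1.65), and 2 lower, led by Srxn1 (-1.44), where 32.4% of all genes were higher and 35% lower. Srxn1 was at 44.8 and 44.6 CPM at 36.5 dpp and between 23.5 and 29.6 at D30. This CPM difference is smaller than the fold change of -1.44, which includes the TMM factors (0.66 and 0.64 at 36.5 dpp). Values by library size alone are not given for genes other than the members. The 4 thioredoxins and reductases of germ cells (Txndc2, Nme8, Txndc8, Txnrd3) were all lower at D30 than at 36.5 dpp, where 35% of all genes were. Txndc2 was at 480 and 561 CPM at 36.5 dpp and between 18.0 and 82.2 at D30.

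Of 5 genes of glutathione synthesis and reduction, Gsr, which regenerates glutathione, was 0.96 higher on the log2 scale at D16 and 2.32 higher at D30 than in the matched testis. Its levels were 15.9 CPM or less at 36.5 dpp and 90.4 or more at D30. Slc7a11, the cystine importer, was higher in vitro at D4 (1.51) and lower at D16 (-1.67) and D30 (-1.02). Of 7 genes of selenoprotein synthesis and selenium transport, Lrp8, a receptor for selenoprotein P, was higher at D4 (1.43), Eefsec and Sepsecs were lower at D16 (-0.82 and -0.49), and Sephs2, which makes the selenium donor, and Eefsec were lower at D30 (-1.21 and -0.81). Of 4 genes of copper supply, Ccs, the copper chaperone of Sod1, was lower in vitro at D16 (-0.75) and D30 (-1.44). Slc31a1, the copper importer, was higher at D4 (0.62), D16 (0.80) and D30 (1.88), where Atp7a, a copper exporter, was higher as well (2.51). For scale, 4.92% of all genes were higher at D4, and 14% were higher and 11.8% lower at D16. At D30 32.4% were higher and 35% lower. The D30 values also carry the TMM scaling described above.

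Of 10 genes that make superoxide or peroxide, Xdh, xanthine oxidoreductase, was higher at D4 than at 10.5 dpp (log2 fold change 2.65), at 16.1 to 20.3 CPM against 2.56 to 3.45. Ero1a, an oxidase of protein folding, was higher at D4 (0.82), D16 (1.09) and D30 (1.80). Nox4, an NADPH oxidase, was higher at D16 (1.97), and Ncf1, a phagocyte oxidase subunit, was lower at D4 (-1.74). Of all genes, 4.92% were higher and 3.18% lower at D4, and 14% were higher at D16. At D30, 5 of the 10 were higher, where 32.4% of all genes were, among them Cybb, the phagocyte NADPH oxidase (2.06), and Duox2, which had at most 3 counts in either 36.5 dpp library, so that no fold is given. The 5 macrophage markers summed to 36.4 to 43.9 CPM at 36.5 dpp and 91.9 to 147 at D30, and to 59.0 to 80.7 at 10.5 dpp and 13.2 to 17.9 at D4. Their part in the levels of Cybb and Ncf1 was not tested.

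**Figure D4:**
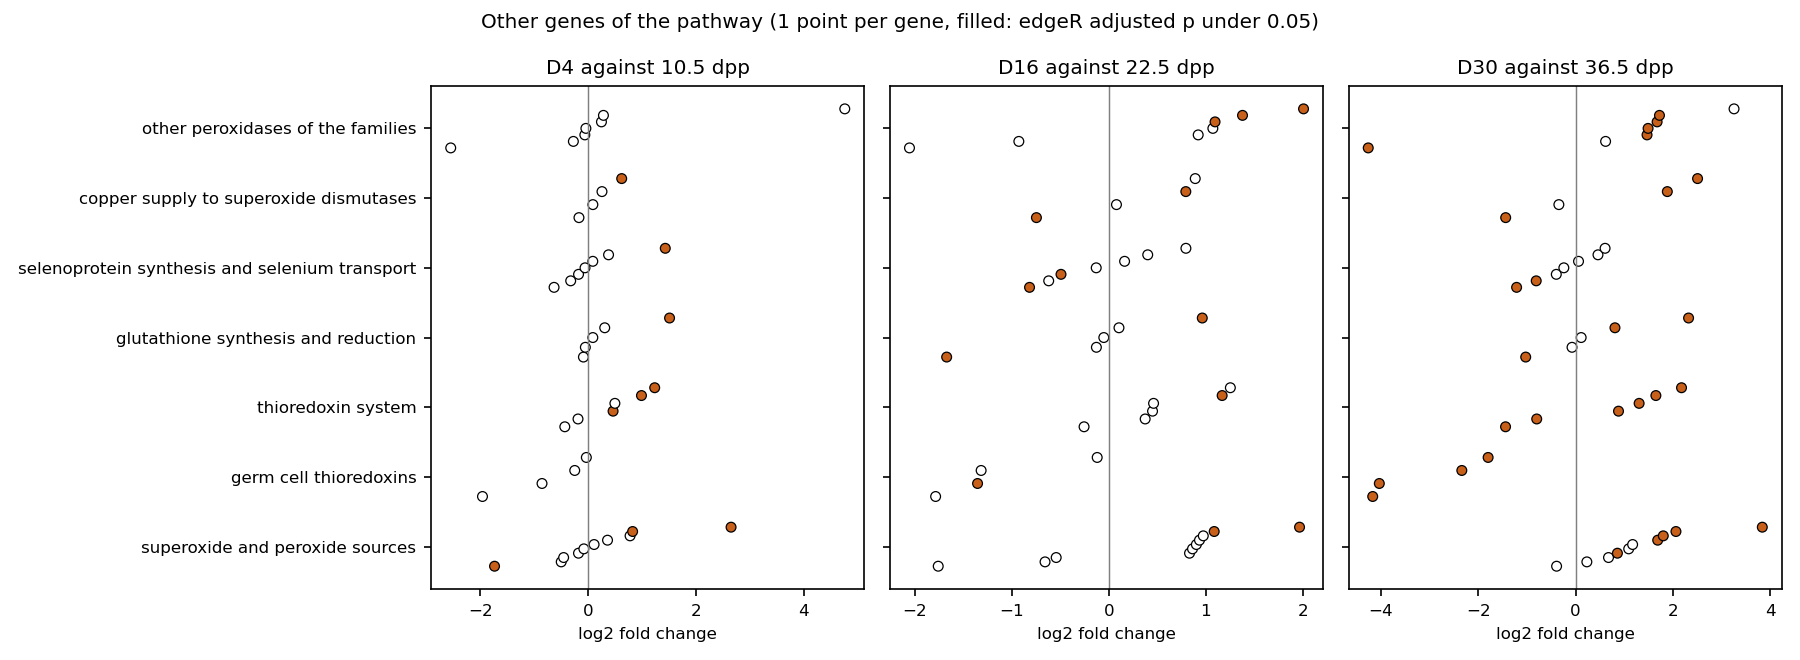
Log2 fold changes in culture against the matched testis for the other genes of the pathway, in 7 lists, 1 point per gene, filled where edgeR's adjusted p is under 0.05. Germ cell thioredoxins lie left of 0 at D30, with all 4 called, and sources of superoxide and peroxide lie mostly right of 0, with 5 of 10 called. Points of genes with 3 counts or fewer in the libraries of a stage, such as Duox2 at 36.5 dpp, are fitted values whose size is no bound.

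The genes closest in pattern to 3 members were sought among 11493 genes with a mean of at least 10 CPM over the 21 libraries, by the root mean square difference of centred log2 levels. Closest to Gpx3 were Adm (0.55), Myoz2 (0.59) and Gpihbp1 (0.64), where Gpx3 itself deviated by 1.89 from its own mean. Closest to Gpx4, which deviated by 1.35, were Mlf1 (0.35), Mea1 (0.36) and Ubxn6 (0.36). Closest to Cat, which deviated by 0.84, were Bcap31 (0.13), 1810030O07Rik (0.14) and Rac1 (0.15). The points share library, depth and the balance of short and long transcripts.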

How the data were processed

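The authors sequenced poly(A) RNA in stranded libraries as single-end reads of 50 bases, aligned them to GRCm38 with STAR 2.7.3a and obtained gene counts from HTSeq 0.12.4, run in intersection-nonempty mode. The strand setting and annotation version are not given in the sources used here. The deposited values are raw read counts for 27466 genes, 27373 of which were matched to symbols and positions of GRCm38.p6. The others hold 0.0204% of the counts. Nothing in the labels says that replicates are separate animals, so p-values measure the spread between these samples. By the paper's account each culture replicate pooled several explants, while whole testis was sequenced in vivo. Spread within a stage thus covers different sampling in vitro and in vivo.

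From the counts, CPM on the library total and, per kilobase, on the exon union of GENCODE M21 were computed. A single edgeR 4.0.16 fit in R 4.3.3 covered 21 libraries in 7 stages, CSF with fresh as in the study, with TMM factors, filterByExpr, the quasi-likelihood F test and Benjamini-Hochberg adjustment over 19255 genes. In simulated counts, 200 of 18770 genes were changed 4-fold between D30 and 36.5 dpp, and edgeR recovered 172 and called 8 unchanged genes. So few genes, changed evenly up and down, cannot test the scaling where most genes differ. Members and lists were chosen with earlier results of these data known. All 10 members are named, and at most 3 genes of each other list, those with the largest absolute log2 fold change among those called in that comparison. Alternatives were RLE factors, library size only, no filter, DESeq2 1.42.0, the study's volcano thresholds, other sets of libraries, a replicate block and, added after values were seen, the short and long transcript index as a covariate. As PCR reads were not collapsed by molecular identifiers, the floor of 3 counts covers counting error only.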

Additional observations from a re-analysis of the deposited data

Results flagged for a closer look

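At 6.5 dpp, where 4 libraries were compared, CSF replicate 3 stood apart from the other 3 by a gap of 0.879 of the whole range for Sod1, 0.891 for Gpx4 and 0.90 for Prdx5, above Dixon's 95% critical value. It also had the highest index of short over long transcripts of all libraries, 1.20, and its part in these levels was not tested. CSF replicate 2 lay below the other 3 for Sod2, with a gap of 0.965 of the range. About 1 in 20 such groups is marked by chance.

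The culture effect differed between ages, by a test of the difference itself, for Cat (1.05 log2 units larger at D16 than at D4, and 1.41 larger at D30) and for Gpx3 (1.48 larger at D16 than at D4). Between D30 and D4 it differed by 1.13 for Sod3, by -0.89 for Sod2, by -2.99 for Gpx4 and by -2.06 for Prdx4, and between D30 and D16 by 1.07 for Sod3 and by -2.41 for Prdx4.

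The library labelled 6.5 dpp fresh replicate 1, outside the comparisons, had 85.7 CPM of Gpx3, against 14.1 to 29.1 in the other 6.5 dpp libraries.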

How the results depend on the processing

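Of 31 differences called among the members, 12 kept their call in each alternative fit that was run for them. The study's volcano thresholds are not part of this count, and fewer calls passed them, as given below. Over 2220 values under alternatives, 60 calls were lost, 68 were gained, 2 values reversed and 92 values that no fit called changed sign. By library size only, Sod2 reversed at 36.5 against 22.5 dpp (log2 fold change -0.058, adjusted p = 0.769), Prdx6 reversed and was called for the culture effect at D30 minus that at D4 (0.67, adjusted p = 0.0193), and Prdx4 was no longer called there (-1.35, adjusted p = 0.0797). Without D16 replicate 2, Gpx4 was called for D30 minus D16 (-2.96, adjusted p = 0.0406). By library size only, the share of called genes that were higher went from 45.9% to 27.9% at 36.5 against 22.5 dpp, from 54.6% to 43.8% at 22.5 against 10.5 dpp, from 54.3% to 68.0% at D16 against 22.5 dpp, from 60.7% to 50.1% at D4 against 10.5 dpp, from 59.1% to 69.2% at 10.5 against 6.5 dpp, and to 73.2%, 78.9% and 82.1% for D16 minus D4, D30 minus D4 and D30 minus D16 (54.7%, 55.5% and 57.0% with TMM). With RLE factors it was 56.0% at 36.5 against 22.5 dpp, 43.9% at D16 against 22.5 dpp and 43.2% for D30 minus D16. The cause of these changes was not tested. The lowest counts of a member are those of Gpx3 at 22.5 dpp, down to 132, where depth limits the precision. The 36.5 dpp stage rests on 2 libraries, and when 1 of them is left out the other is assumed to vary like the other stages.

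Counts of members called changed as follows, here and in the next paragraph. Shares of all genes called in the same fits are not given, so no such change is read as a result about the members. With the study's thresholds they were 0 at 22.5 against 10.5 dpp, 0 at 36.5 against 22.5 dpp, 1 at D4 against 6.5 dpp, 1 at D16 against 22.5 dpp, 2 at D30 against 36.5 dpp and 0 for the differences between culture effects. Fits of only the stages compared called 7 at 22.5 against 10.5 dpp, 3 at 36.5 against 22.5 dpp, 1 at D16 against D4, 2 at D4 against 10.5 dpp, 1 at D16 against 22.5 dpp and 1 for D30 minus D16. With 6.5 dpp fresh replicate 1 kept, the counts were 2 at 36.5 against 22.5 dpp, 0 for D16 minus D4 and 0 for D30 minus D16. Without a filter 3 were called at 36.5 against 22.5 dpp. At D4 against 6.5 dpp DESeq2 called 5, fresh libraries only gave 1 and 9 groups gave 1. Fresh libraries only gave 5 for D30 minus D16, and RLE factors gave 1 for D16 minus D4.

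With the index as a covariate, the counts were 4 at 10.5 against 6.5 dpp, 7 at 22.5 against 10.5 dpp, 9 at 36.5 against 22.5 dpp, 8 at D4 against 6.5 dpp, 2 at D16 against D4, 2 at D30 against D16, 4 at D16 against 22.5 dpp and 6 for D30 minus D16. Leaving out each library in turn gave 1 to 6 at 36.5 against 22.5 dpp, 3 to 4 at D4 against 6.5 dpp, 1 to 2 at D16 against 22.5 dpp, 5 to 7 at D30 against 36.5 dpp, 1 to 2 for D16 minus D4, 3 to 5 for D30 minus D4 and 0 to 4 for D30 minus D16. The replicate block changed 2 counts, to 6 for D30 minus D4 and 3 for D30 minus D16. The labels tie samples of different stages by nothing but the replicate number, so the samples were not treated as paired. The deviations of same-numbered samples correlated between -0.56 and 0.66. Both pairs of D16 and 22.5 dpp were positive (0.52 and 0.66). With 2 libraries at D16 the deviations there mirror each other, so these 2 values are not independent and do not decide on pairing.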
